A study of Mus musculus with 10 samples.

Results

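The genes described here are 10 components of the bone morphogenetic protein (BMP) pathway in the embryonic mouse kidney: the ligands *Bmp2*, *Bmp4*, *Bmp5* and *Bmp7*, the receptor *Bmpr1a*, the secreted regulators *Grem1*, *Nog* and *Bmper*, and the targets *Id1* and *Id3*. They were taken by gene symbol from a table of 35663 gene entries, and each symbol was present. RNA was sequenced from whole kidneys at E13.5 on a C57/b6 background, in 4 wild-type, 3 *Foxd1GC* control and 3 *Ntn1SPKO* libraries. *Foxd1GC* is a GFP-Cre allele at the *Foxd1* locus, active in stromal progenitors, and its insertion leaves 1 working copy of *Foxd1* in kidneys that carry it. Control kidneys carry *Foxd1GC* alone. *Ntn1SPKO* kidneys carry *Foxd1GC* and a homozygous floxed *Ntn1* allele (Ntn1flox/flox), so that *Ntn1*, which codes for the secreted guidance protein netrin-1, is deleted in stromal progenitors and the cells that descend from them. Both Cre groups share the *Foxd1GC* allele, and wild-type kidneys lack it. The labels number the libraries within each group without saying whether each came from a separate embryo, so p-values measure the spread between these libraries, which may be technical in part. Y-linked transcripts, given below, differed within the wild-type and control groups, so each of these groups held more than 1 embryo.

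BMP ligands are secreted proteins that bring type I and type II receptor kinases together. The type I receptor then phosphorylates Smad1, Smad5 and Smad9, which enter the nucleus with Smad4 and switch on genes such as *Id1*, *Id2*, *Id3*, *Msx1* and *Msx2*. Antagonists such as noggin and gremlin bind the ligands outside the cell and keep them from the receptor. In the developing kidney, Bmp4 in the mesenchyme around the nephric duct restrains ureteric budding, Grem1 lifts that restraint so that the ureteric bud can grow out and branch, and Bmp7 sustains nephron progenitors. These are background facts and were not measured here.

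Values are FPKM, fragments divided by coding length and by library size, so that levels of different genes can be set side by side. Groups were compared by limma on log2(FPKM+0.1). Genes averaging 0.5 FPKM or more were tested, and p-values were adjusted over all of them by the Benjamini-Hochberg method. Called genes had both an adjusted p below 0.1 and a change of 2-fold or more. A log2 fold change (log2 FC) is the gap between the mean log2(FPKM+0.1) of the groups, given with their standard error (SE) or 95% confidence interval (CI). In whole kidneys, fewer cells of a type and less RNA per cell cannot be told apart.

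Library facts that touch the BMP values are given first. A rough depth, read from the smallest steps between low values, was 26.1 to 32.3 M fragments per library. *Ntn1* was 10.7 to 16.3 FPKM in *Ntn1SPKO*, 24.2 to 51.4 FPKM in control and 27.1 to 46.3 FPKM in wild-type libraries, so the groups kept the order that their labels give. Markers of the kidney were present: the summed level of 7 nephron progenitor markers (*Six2*, *Cited1* and others) was 268 to 397 FPKM, and that of 7 cortical stroma markers (*Foxd1*, *Pdgfra* and others) was 460 to 535 FPKM. Control replicate 3 stood apart. Its 8 skeletal muscle markers summed to 992 FPKM, against 17.5 to 216 FPKM in the other libraries. Its 10 ureteric epithelium markers summed to 89.4 FPKM, against 218 to 278 FPKM, and its 6 early nephron markers to 28.2 FPKM, against 63.1 to 116 FPKM. Wild-type replicate 3 had the highest summed FPKM of all entries, 1002638, against 795829 to 874966 in the others. Y-linked transcripts were present in wild-type replicate 3, control replicate 2 and the 3 *Ntn1SPKO* libraries, so embryo sex differed between the groups. Values that moved most without control replicate 3 or wild-type replicate 3, or with embryo sex as a covariate, are therefore also given that way. As all 3 *Ntn1SPKO* libraries held Y-linked transcripts, that covariate sets them against 1 library of the other group. This is control replicate 2 or wild-type replicate 3. Such values of *Ntn1SPKO* rest on that library and cannot tell embryo sex from its other traits.

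*Id3* was the highest and *Grem1* the lowest of the 10 BMP genes in each group. Over the 10 libraries the mean was 140.0 FPKM for *Id3*, 64.6 FPKM for *Bmpr1a* and 54.8 FPKM for *Id1*. *Bmp4*, *Bmp7* and *Bmper* formed a middle tier with means of 27.6, 24.3 and 23.7 FPKM, and their order differed between groups. Within this tier neighbours in rank overlapped in each group, but in wild-type libraries the lowest *Bmp4* (22.4 FPKM) was above the highest *Bmper* (22.2 FPKM). *Bmp2* (mean 3.48 FPKM) and *Bmp5* (mean 2.43 FPKM) followed, and their ranges were separate in wild-type and *Ntn1SPKO* kidneys but overlapped in control kidneys. *Nog* (mean 1.19 FPKM) and *Grem1* (mean 0.268 FPKM) closed the order. *Id1* and *Bmpr1a* did not overlap in either Cre group but did in wild-type kidneys. By rank, *Id3* lay at 5.4% from the top of the genes averaging 0.5 FPKM or more, *Bmpr1a* at 12.5%, *Bmp4* at 29.2% and *Bmp2* at 75.1%. The depth behind these values differed as well: a *Bmpr1a* value stood for roughly 2580 to 3330 fragments, a *Bmp2* value for 34 to 177, a *Nog* value for 16.1 to 32.1, and a *Grem1* value for 2.38 to 6.14.

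**Figure D1:**
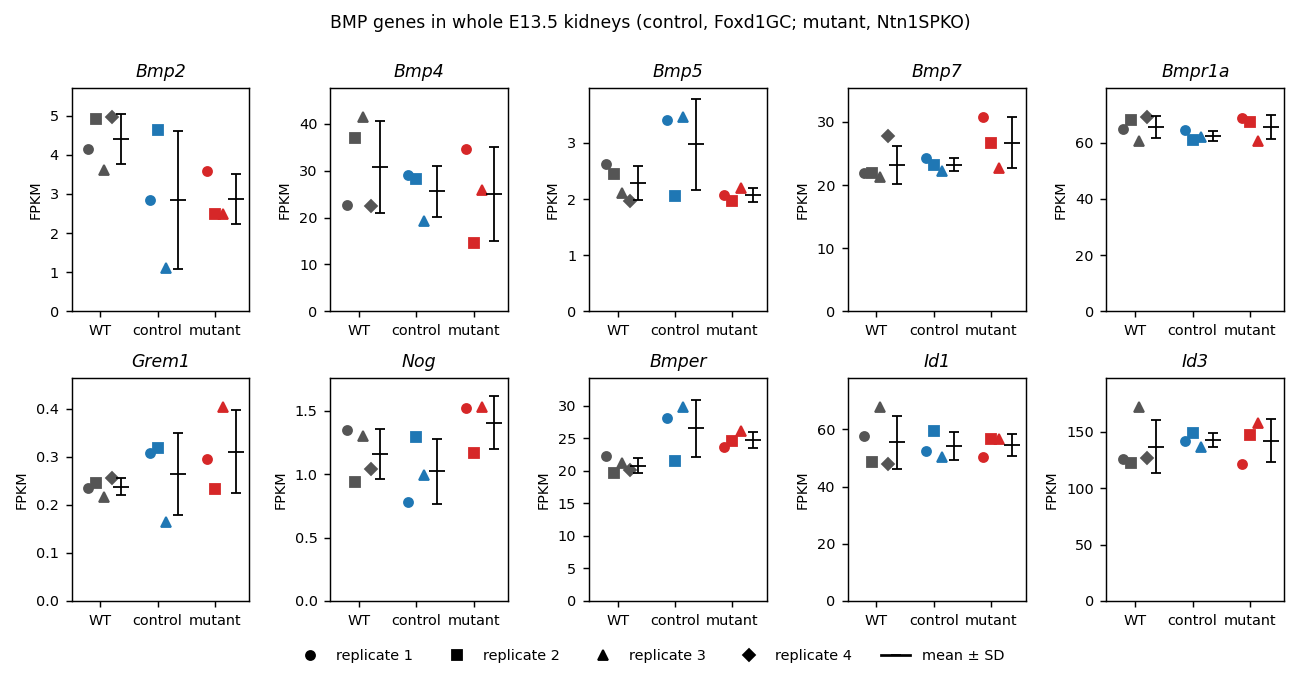
FPKM (vertical axes, linear, from 0) of the 10 BMP genes in each library of the wild-type (WT), Foxd1GC control and Ntn1SPKO (mutant) groups, with marker shapes for replicate numbers and bars for the mean ± SD of the group. Bmp2 in the 3 Ntn1SPKO libraries lies below the 4 wild-type libraries and Bmper above them, while control replicate 3 has the lowest Bmp2 and the highest Bmper.

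The first question was whether any BMP gene differed when *Ntn1* was deleted from the stroma, comparing *Ntn1SPKO* with *Foxd1GC* control kidneys, which share the Cre allele. No BMP gene was called. Of the 10 genes, 9 passed the filter on low values and were tested (*Grem1* did not), and 0 of these 9 were called by limma, where 0.055% of all 14550 genes tested were. Also, 0 of 9 had an unadjusted p under 0.05, against 10.7% of all genes, and 0 of 9 had groups that did not overlap, against 19.9% of all genes. Without control replicate 3 both counts were still 0 of 9, against 7.23% and 25.6% of all genes. With 3 libraries against 3, an exact permutation test cannot go below p=0.1. The deleted gene *Ntn1* was itself not called here (log2 FC −1.48, limma adjusted p=0.447). Nor was it called against wild-type kidneys (log2 FC −1.30, limma adjusted p=0.140). A BMP gene that was not called may therefore still differ. The median log2 FC over the 9 genes was 0.01, equal to that over all genes tested at this rounding. Marker genes moved with this contrast. The 8 skeletal muscle genes were each lower in *Ntn1SPKO* (median log2 FC −2.69), 5 of them without overlap. The 3 liver, gut and adrenal genes tested were also lower (median log2 FC −1.99). The 6 early nephron and 9 ureteric epithelium genes tested were each higher. The part of these markers in the BMP values was not tested.

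Among the ligands, *Bmp2* lies on chromosome 2 of GRCm38 (133552159 to 133562885). It was 4.15, 4.91, 3.61 and 4.96 FPKM in wild-type replicates 1 to 4, 2.84, 4.63 and 1.10 FPKM in control replicates 1 to 3, and 3.60, 2.50 and 2.50 FPKM in *Ntn1SPKO* replicates 1 to 3. The control libraries were spread more widely than either other group and enclosed all *Ntn1SPKO* values. The log2 FC between *Ntn1SPKO* and control was 0.19 (95% CI −0.996 to 1.38, limma adjusted p=0.864). That interval holds a 2-fold increase and falls just short of a 2-fold decrease. The direction turned without control replicate 3 (log2 FC −0.35, adjusted p=0.746) and with embryo sex as a covariate (−0.69, against control replicate 2 alone).

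*Bmp4* (chromosome 14, 46383520 to 46390669) was the ligand with the widest spread among *Ntn1SPKO* kidneys. It was 22.6, 37.1, 41.5 and 22.4 FPKM in wild-type, 29.2, 28.3 and 19.4 FPKM in control, and 34.6, 14.6 and 25.9 FPKM in *Ntn1SPKO* libraries. The *Ntn1SPKO* values fell on both sides of the control values. The log2 FC was −0.10 (95% CI −0.89 to 0.70, adjusted p=0.903), and it was 0.25 without *Ntn1SPKO* replicate 2 and −0.26 with embryo sex as a covariate.

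*Bmp5*, a ligand close in sequence to Bmp7 (chromosome 9, 75775364 to 75900310), was 2.63, 2.44, 2.11 and 1.96 FPKM in wild-type, 3.41, 2.05 and 3.46 FPKM in control, and 2.07, 1.96 and 2.21 FPKM in *Ntn1SPKO* libraries. Control replicates 1 and 3 were the highest of the 10 libraries, and control replicate 2 lay among the other groups. The log2 FC of −0.46 against control was the largest in size among the 9 BMP genes tested (SE 0.23, 95% CI −1.01 to 0.09, adjusted p=0.451, exact permutation p=0.3). It ranged from −0.70 to −0.34 when each library was left out in turn, and it was 0.02 with embryo sex as a covariate. *Bmp7* (chromosome 2, 172868012 to 172940321) was 21.9, 21.9, 21.3 and 27.8 FPKM in wild-type, 24.3, 23.2 and 22.3 FPKM in control, and 30.8, 26.6 and 22.7 FPKM in *Ntn1SPKO* libraries. 2 of the 3 *Ntn1SPKO* values were above all control values, and the log2 FC was 0.19 (95% CI −0.09 to 0.47, adjusted p=0.489).

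The type I receptor *Bmpr1a* (chromosome 14, 34410734 to 34503341) varied least, with a coefficient of variation of 5.40% over the 10 libraries. It was 64.7, 68.0, 60.5 and 69.0 FPKM in wild-type, 64.3, 60.9 and 62.0 FPKM in control, and 68.7, 67.4 and 60.7 FPKM in *Ntn1SPKO* libraries. The groups overlapped throughout. The log2 FC was 0.07 (95% CI −0.09 to 0.23, adjusted p=0.622), an interval that holds no change of more than 0.23 in size on the log2 scale.

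Of the secreted regulators, *Nog*, which codes for noggin (chromosome 11, 89300638 to 89302332), was 1.35, 0.940, 1.30 and 1.04 FPKM in wild-type, 0.782, 1.29 and 0.997 FPKM in control, and 1.52, 1.17 and 1.53 FPKM in *Ntn1SPKO* libraries. *Ntn1SPKO* replicates 1 and 3 were the highest of all, and replicate 2 lay within the control range. The log2 FC of *Nog* was 0.44 (95% CI −0.18 to 1.06, adjusted p=0.477), and 0.10 with embryo sex as a covariate. *Bmper* (chromosome 9, 23223076 to 23485200) codes for a secreted protein that binds BMPs and chordin and can dampen or favour signalling. It was 22.2, 19.6, 21.2 and 20.1 FPKM in wild-type, 28.1, 21.5 and 29.8 FPKM in control, and 23.6, 24.6 and 26.0 FPKM in *Ntn1SPKO* libraries. The control values enclosed the *Ntn1SPKO* values, with a log2 FC of −0.09 (95% CI −0.40 to 0.23, adjusted p=0.758) that became 0.0049 without control replicate 3. *Grem1* (chromosome 2, 113746164 to 113758646) was 0.216 to 0.255 FPKM in wild-type, 0.165 to 0.320 FPKM in control and 0.233 to 0.404 FPKM in *Ntn1SPKO* libraries. At a few fragments per library a difference in *Grem1* was not detectable at this depth (log2 FC 0.18, 95% CI −0.57 to 0.94, from a fit with no filter on low values).

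The targets *Id1* and *Id3* code for helix-loop-helix proteins without a DNA-binding region, which hold other helix-loop-helix factors off DNA. *Id1* (chromosome 2, 152736251 to 152737410) was 57.5, 48.7, 67.9 and 48.0 FPKM in wild-type, 52.5, 59.6 and 50.5 FPKM in control, and 50.2, 56.7 and 56.8 FPKM in *Ntn1SPKO* libraries. *Id3* (chromosome 4, 136143497 to 136145755) was 126.1, 122.4, 172.0 and 126.4 FPKM in wild-type, 141.7, 148.8 and 136.8 FPKM in control, and 121.0, 147.4 and 157.5 FPKM in *Ntn1SPKO* libraries. Both were highest in wild-type replicate 3, and the groups overlapped for both. Between *Ntn1SPKO* and control the log2 FC of *Id1* was 0.01 (95% CI −0.20 to 0.22, adjusted p=0.959). That of *Id3* was −0.01 (95% CI −0.26 to 0.24, adjusted p=0.962). Both signs turned with the scaling (−0.02 for *Id1* after quantile normalization, 0.02 for *Id3* after rescaling to the same total).

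**Figure D2:**
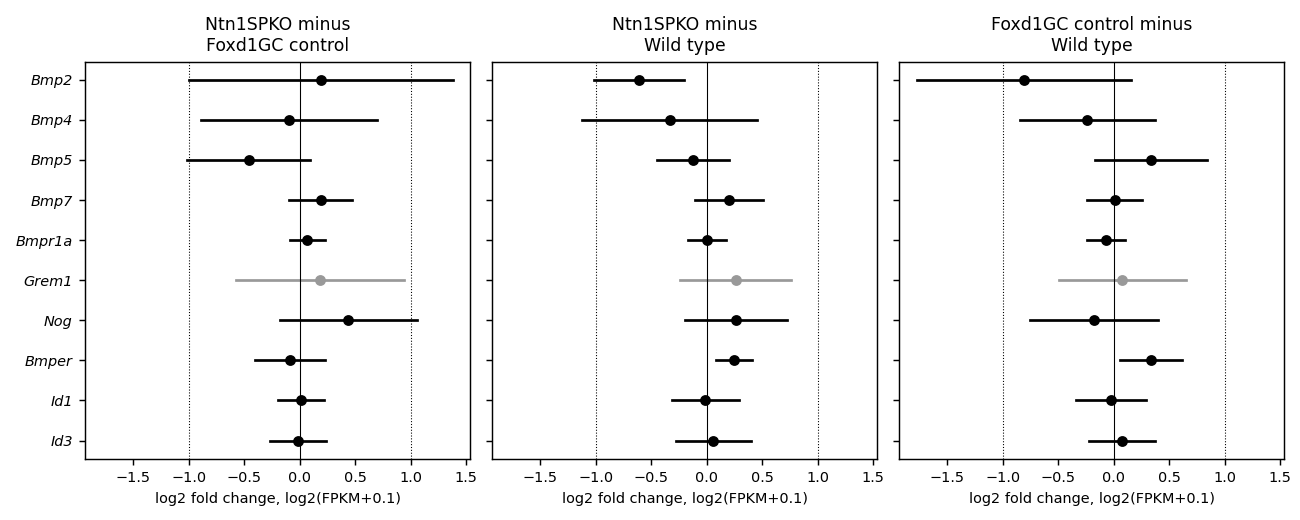
Log2 fold change on the log2(FPKM+0.1) scale (horizontal axis) of the 10 BMP genes in 3 comparisons, with 95% confidence intervals from limma as lines, the grey Grem1 values from a fit with no filter, and dotted lines at 2-fold. In Ntn1SPKO against wild type the intervals of Bmp2 and Bmper do not reach 0, in Foxd1GC control against wild type that of Bmper does not, and in Ntn1SPKO against Foxd1GC control each interval holds 0.

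*Ntn1SPKO* kidneys were next compared with wild-type kidneys, a contrast that joins the loss of *Ntn1* and the *Foxd1GC* allele. *Bmp2* was lower and *Bmper* higher in each *Ntn1SPKO* library than in any wild-type library, and neither was called. Of the 9 BMP genes tested, 0 were called, against 0.0485% of all 14432 genes tested. 2 of 9 (22.2%) had an unadjusted p under 0.05, against 5.76% of all genes, and the same 2 had groups that did not overlap, against 7.1% of all genes. Without wild-type replicate 3 the counts were again 2 and 2, against 7.35% and 12.5% of all genes.

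*Bmp2* was 2.86 ± 0.635 FPKM (mean ± SD, n=3) in the *Ntn1SPKO* group and 4.41 ± 0.647 FPKM (n=4) in the wild-type group. The highest *Ntn1SPKO* library, replicate 1, and the lowest wild-type library, replicate 3, differed only in the third digit (3.598 and 3.611 FPKM). The log2 FC was −0.61 (SE 0.17, unadjusted p=0.00859, adjusted p=0.529, exact permutation p=0.0571). It was −0.53 to −0.78 when each library was left out in turn, and −0.34 with embryo sex as a covariate (adjusted p=0.39). *Bmper* was 24.7 ± 1.23 FPKM (n=3) in the *Ntn1SPKO* group and 20.8 ± 1.16 FPKM (n=4) in the wild-type group. The log2 FC was 0.25 (SE 0.07, unadjusted p=0.00762, adjusted p=0.516), and the exact permutation p=0.0286 was the smallest that 3 against 4 libraries can give. It was 0.21 to 0.28 when each library was left out in turn, and 0.22 with embryo sex as a covariate. The 8 skeletal muscle markers moved with this contrast, with sums of 17.5 to 70.0 FPKM in *Ntn1SPKO* and 114 to 207 FPKM in wild-type libraries and 7 of 8 genes lower without overlap, and none of the 8 at 0 in any library. The early nephron and ureteric epithelium sums overlapped between these groups (90.1 to 107 against 91.4 to 116 FPKM, and 258 to 278 against 246 to 264 FPKM). Their part, and that of the muscle markers, in the *Bmp2* and *Bmper* values was not tested.

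The other 7 BMP genes tested overlapped between *Ntn1SPKO* and wild-type kidneys. *Bmp4* had a log2 FC of −0.33 (95% CI −1.12 to 0.46), *Bmp5* of −0.12 (95% CI −0.45 to 0.20), *Bmp7* of 0.20 (95% CI −0.11 to 0.50) and *Nog* of 0.26 (95% CI −0.20 to 0.72). Embryo sex was unbalanced here, with Y-linked transcripts in 3 of 3 *Ntn1SPKO* and 1 of 4 wild-type libraries. As a covariate it sets *Ntn1SPKO* against wild-type replicate 3 alone. The log2 FCs were then −0.81 (*Bmp4*), −0.02 (*Bmp5*), 0.31 (*Bmp7*) and 0.09 (*Nog*), with adjusted p-values of 0.337 to 0.966. Without *Ntn1SPKO* replicate 2 the log2 FC of *Bmp4* was 0.01. The log2 FC of *Bmpr1a* was 0.00067 (95% CI −0.17 to 0.17), and its sign turned in 4 of 7 fits that left out 1 library. For *Id1* it was −0.01 (95% CI −0.31 to 0.29) as deposited, 0.04 after rescaling to the same total, and −0.32 (adjusted p=0.154) with embryo sex as a covariate. For *Id3* it was 0.06 (95% CI −0.28 to 0.40), and −0.29 (adjusted p=0.228) with that covariate. Without the covariate the adjusted p-values of the 7 genes were 0.947 to 0.999.

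The third comparison, of *Foxd1GC* control with wild-type kidneys, differs by label in the *Foxd1GC* allele, in kidneys that keep *Ntn1*. Marker sums differed between these libraries too, so the allele and tissue content cannot be told apart. It shares its wild-type libraries with the comparison above, so the values of both are set side by side without a count of agreement. *Bmper* was 26.5 ± 4.36 FPKM (n=3) in control kidneys (log2 FC 0.34, SE 0.12, unadjusted p=0.0246, adjusted p=0.665, exact permutation p=0.0571). Control replicates 1 and 3 were above all wild-type libraries, while control replicate 2 (21.5 FPKM) lay between wild-type replicates 3 and 1. *Bmp2* was 2.86 ± 1.77 FPKM (n=3) in control kidneys (log2 FC −0.81, 95% CI −1.77 to 0.16, adjusted p=0.665). Without control replicate 3 the log2 FC of *Bmp2* was −0.26 and that of *Bmper* 0.25 (adjusted p=1.00 for both). *Bmper* was the 1 gene of 9 with an unadjusted p under 0.05 (7.06% of all 14594 genes). 0 of 9 were called (0.00685% of all genes) and 0 of 9 had groups without overlap (8.09% of all genes). The count with an unadjusted p under 0.05 was 0 of 9 without control replicate 3, against 3.7% of all genes, and 2 of 9 without wild-type replicate 3, against 10.5%. Groups without overlap were 0 of 9 and 2 of 9 in these fits, against 11.8% and 19.7%. Markers of red blood cells moved with this contrast: the 7 erythroid genes each had an unadjusted p under 0.05. They summed to 5974 to 12952 FPKM in control and 3399 to 7685 FPKM in wild-type libraries. The 6 early nephron genes were each lower in control (median log2 FC −0.81). They summed to 63.1, 111 and 28.2 FPKM in control replicates 1 to 3 and 91.4 to 116 FPKM in wild-type libraries. Of 9 ureteric epithelium genes tested, 7 were lower in control (median log2 FC −0.62). The part of these markers in the BMP values was not tested.

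*Bmp2* and *Bmper* ran in opposite directions across libraries, and *Id1* and *Id3* ran together. Of the 45 pairs among the 10 genes, these 2 had an adjusted p under 0.1 by a permutation test of Pearson's r over the 10 libraries, two-sided, and 6 had an unadjusted p under 0.05. For *Bmp2* and *Bmper*, Pearson's r was −0.89 (permutation p=0.00025, adjusted p=0.0112) and Spearman's rho −0.92 (permutation p=0.00055, adjusted p=0.0247). Control replicate 3 held the lowest *Bmp2* and the highest *Bmper* of the 10 libraries. Without the 2 libraries farthest from the median of *Bmp2*, r was −0.85 (exact permutation p=0.00722, adjusted p=0.325), so its size stayed while the call did not. With group means removed r was −0.84 (permutation p=0.0045). That permutation treats the centred values as independent, which they are not, so p-values with group means removed are likely too small. Among the 3 control libraries the one with more *Bmp2* had less *Bmper* in each pairing, but 3 libraries are too few for a value of r. For *Id1* and *Id3*, r was 0.82 (permutation p=0.00342, adjusted p=0.0769) and rho 0.72 (permutation p=0.023, adjusted p=0.259). Without the 2 libraries farthest from the median of *Id1*, r was 0.64 (exact permutation p=0.0914), so this relation rests in part on those libraries, and with group means removed it was 0.85. *Bmpr1a* ran against *Id3* with an r of −0.78 (permutation p=0.0107, adjusted p=0.16) and a rho of −0.83 (permutation p=0.00474, adjusted p=0.082). With group means removed r was −0.82 (permutation adjusted p=0.0405, with the same limit). Without the 2 libraries farthest from the median of *Bmpr1a* this r was −0.70 (exact permutation p=0.0623).

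**Figure D3:**
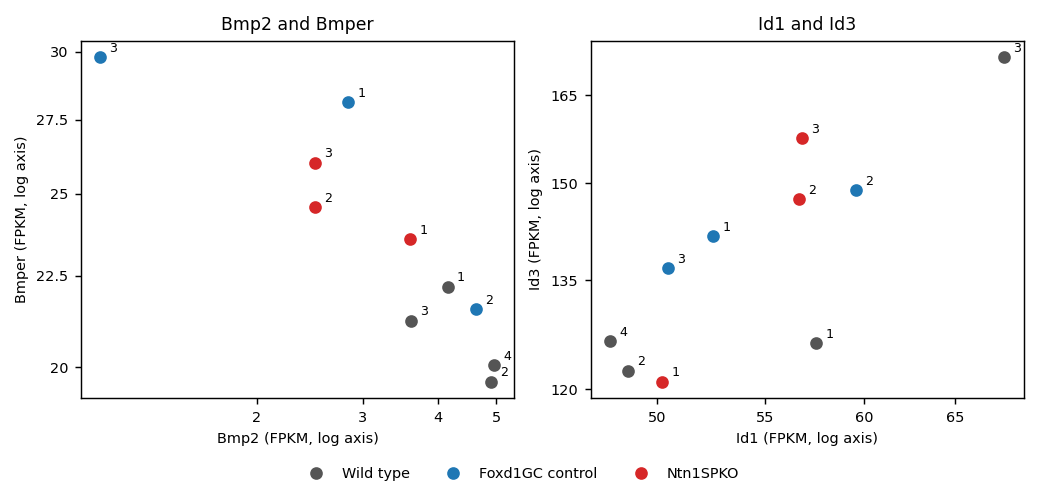
FPKM on log axes of Bmp2 against Bmper (left) and Id1 against Id3 (right) in the 10 libraries, 1 point each, coloured by group and numbered by replicate. Bmper is lower where Bmp2 is higher (Pearson's r −0.89), with control replicate 3 at one end, and Id3 is higher where Id1 is higher (r 0.82), with wild-type replicate 3 at the top.

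The genes whose levels ran most closely with each BMP gene were searched among 14534 genes averaging 0.5 FPKM or more, by Pearson's r of log2(FPKM+0.1) over the same 10 libraries. These values are a description, since the top of so many genes is high by selection, and the libraries include control replicate 3. *Bmp2* ran closest with *Ccnd1* (cyclin D1, r 0.979), *Ano1* (a chloride channel, r 0.977) and *Papss2* (an enzyme that makes the sulphate donor, r 0.967). *Bmper* ran closest with *Prdm6* (r 0.975), *Tent5a* (r 0.965) and *Fbln5* (fibulin 5 of elastic fibres, r 0.959), which was 13.2 to 48.6 FPKM. *Bmp5* ran closest with *Adcy2* (an adenylyl cyclase, r 0.965), *Lrrn2* (r 0.954) and *Itga4* (an integrin subunit, r 0.953). *Bmpr1a* ran closest with *Mtdh* (r 0.964), *Marchf6* (r 0.945) and *Tlk1* (r 0.933). For 5 of the other genes the closest were *Wdr83* for *Bmp4* (r 0.910), *Dok2* for *Bmp7* (r 0.930), *Sbk1* for *Grem1* (r 0.912), *Tomm22* for *Id1* (r 0.925) and *Mrpl2* for *Id3* (r 0.934).

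The 250 bases upstream of the start were read for the BMP genes found in the RefSeq promoter table of GRCm38.p6. 6 of the 10 genes matched (*Bmp4*, *Bmp5*, *Grem1*, *Bmper*, *Bmpr1a* and *Id3*). *Bmper* and *Bmp5*, both on the plus strand of chromosome 9, are shown because they are the matched genes with the lowest p in a comparison with wild-type and with control kidneys, respectively. Capitals mark the short motif CAGAC, or its reverse complement GTCTG, which Smad4 can bind.
Bmper, chr9:23222826-23223075: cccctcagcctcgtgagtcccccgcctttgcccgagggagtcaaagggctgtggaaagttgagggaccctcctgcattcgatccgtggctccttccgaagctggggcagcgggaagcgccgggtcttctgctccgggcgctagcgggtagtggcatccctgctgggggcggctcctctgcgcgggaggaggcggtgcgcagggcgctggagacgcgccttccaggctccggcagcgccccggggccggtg
Bmp5, chr9:75775115-75775364: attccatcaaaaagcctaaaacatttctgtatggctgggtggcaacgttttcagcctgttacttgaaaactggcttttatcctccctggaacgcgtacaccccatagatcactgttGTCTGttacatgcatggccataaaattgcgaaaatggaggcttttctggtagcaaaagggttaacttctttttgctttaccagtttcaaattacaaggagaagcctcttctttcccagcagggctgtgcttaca
The *Bmper* window was 71.6% G and C and held neither CAGAC nor the GC-rich motif GGCGCC, which Smad1 and Smad5 can bind. The *Bmp5* window was 42.8% G and C and held 1 match to CAGAC and 0 to GGCGCC. Both motifs were searched on both strands. Of 32851 promoter windows of the same length, 42.2% held CAGAC and 9.59% held GGCGCC. A match is a description of these letters and not a measured site.

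The wider BMP pathway was read from 5 lists of 72 genes in all, which include the 10 genes above. No gene of the 5 lists was called in any of the 3 comparisons, except *Sostdc1* against wild-type with embryo sex as a covariate. That call rests on wild-type replicate 3. Between *Ntn1SPKO* and control kidneys 62 were tested. Of these, 5 had an unadjusted p under 0.05 and were lower and 2 were higher (11.3% together, against 10.7% of all genes), and 11 had groups without overlap (17.7%, against 19.9%). Without control replicate 3, 3 had an unadjusted p under 0.05 (5.08%, against 7.23% of all genes) and 15 had groups without overlap (25.4%, against 25.6%). The shares in this comparison were thus near those of all genes, with and without that library. The median log2 FC over the lists was 0.03, against 0.01 over all genes.

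Between *Ntn1SPKO* and wild-type kidneys, 59 genes of the lists were tested, 5 with an unadjusted p under 0.05 and lower and 6 higher (18.6%, against 5.76% of all genes). Groups without overlap were 11 (18.6%, against 7.1%), and without wild-type replicate 3 the counts were 11 and 15 of 60 (18.3% and 25%, against 7.35% and 12.5%). The median log2 FC was 0.05, against 0.0034 over all genes. Between control and wild-type kidneys, 60 were tested, with 1 lower and 7 higher at an unadjusted p under 0.05 (13.3%, against 7.06%) and 7 without overlap (11.7%, against 8.09%). Without control replicate 3 these were 3 (5.08%, against 3.7%) and 11 (18.6%, against 11.8%) of 59. Without wild-type replicate 3 they were 7 (11.5%, against 10.5%) and 12 (19.7%, against 19.7%) of 61, at or near the shares of all genes. No test of these shares was made, and the genes of a pathway are not independent of each other.

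Among the ligands of the wider lists, *Bmp3*, which codes for an atypical BMP that counters signalling, was lower in each *Ntn1SPKO* library than in any other library. It was 5.12, 4.22, 4.88 and 5.46 FPKM in wild-type, 7.35, 3.40 and 9.52 FPKM in control, and 2.63, 2.80 and 3.27 FPKM in *Ntn1SPKO* libraries. The log2 FC of *Bmp3* was −0.74 against wild-type (SE 0.12, unadjusted p=0.000422, adjusted p=0.149) and −1.08 against control (SE 0.37, adjusted p=0.447). The value against control was −0.77 without control replicate 3 and −0.23 with embryo sex as a covariate. *Gdf6*, a related growth and differentiation factor, was 0.370 to 0.568 FPKM in *Ntn1SPKO* and 0.609 to 2.52 FPKM in control libraries (log2 FC −1.28, adjusted p=0.447, −0.81 without control replicate 3 and −0.33 with embryo sex as a covariate), and its wild-type values, 0.455 to 0.680 FPKM, overlapped with those of *Ntn1SPKO*. *Gdf5* was lower in wild-type (0.332 to 0.579 FPKM) than in *Ntn1SPKO* (0.689 to 0.814 FPKM) and control libraries (0.602 to 1.57 FPKM), with log2 FCs of 0.67 (adjusted p=0.817) and 0.93 (adjusted p=0.665, and 0.59 without control replicate 3) against wild-type. With means of 0.469 FPKM for *Gdf6* in *Ntn1SPKO* and 0.453 FPKM for *Gdf5* in wild-type libraries, both passed the filter in these comparisons through the higher group.

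Of the 13 receptor and co-receptor genes, 0 had an unadjusted p under 0.05 in any of the 3 comparisons. *Acvr2a*, a type II receptor, was the 1 gene of that list whose groups did not overlap in *Ntn1SPKO* against control kidneys (14.3 to 16.1 against 12.2 to 13.8 FPKM, log2 FC 0.20, adjusted p=0.447).

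Of the 22 antagonists and modulators, *Sostdc1*, a secreted inhibitor of BMP and Wnt signalling, was lower in both Cre groups than in wild-type kidneys. It was 2.27, 2.49, 3.96 and 2.69 FPKM in wild-type, 1.83, 1.88 and 0.891 FPKM in control, and 1.68, 1.39 and 1.49 FPKM in *Ntn1SPKO* libraries. Neither Cre group overlapped with the wild-type group. The log2 FC of *Sostdc1* was −0.84 in *Ntn1SPKO* (SE 0.20, adjusted p=0.378) and −0.89 in control kidneys (SE 0.30, adjusted p=0.665), and both comparisons use the same wild-type libraries. With embryo sex as a covariate *Sostdc1* was called in *Ntn1SPKO* against wild-type kidneys (log2 FC −1.33, adjusted p=0.0104), in a fit that called 187 genes in all. That fit sets *Ntn1SPKO* against wild-type replicate 3 alone, which held the highest *Sostdc1* (3.96 FPKM). Without wild-type replicate 3 and without the covariate the log2 FC was −0.67 (limma adjusted p=0.281), and *Sostdc1* was not called. In control kidneys the log2 FC was −0.56 without control replicate 3. *Vwc2*, a secreted protein with chordin-like repeats, was 1.17 to 2.24 FPKM in control, 0.588 to 1.02 FPKM in *Ntn1SPKO* and 0.627 to 1.01 FPKM in wild-type libraries. Its log2 FC was −1.22 in *Ntn1SPKO* against control (adjusted p=0.447) and 1.07 in control against wild-type (adjusted p=0.665), and these were −1.07 and 0.92 without control replicate 3. With embryo sex as a covariate the first was −0.62. Smaller gaps were seen for *Dand5* (log2 FC −0.31 against control, adjusted p=0.463) and *Sost* (0.39 against wild-type, adjusted p=0.916). Other genes of this list also had an unadjusted limma p under 0.05, and none was called. In *Ntn1SPKO* these were *Chrd* (log2 FC −0.89 against control, −0.58 against wild-type), *Fstl1* (−0.14 against wild-type) and *Kcp* (0.33 against wild-type). In control against wild-type kidneys they were *Kcp* (0.47) and *Fst* (0.79).

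Of the 10 Smad and intracellular regulator genes, *Smad9* was 3.57 to 3.64 FPKM in *Ntn1SPKO*, 1.20 to 3.32 FPKM in control and 2.04 to 3.38 FPKM in wild-type libraries, above both other groups (log2 FC 0.72, adjusted p=0.450 against control, and 0.42, adjusted p=0.861 against wild-type). Against control it was 0.33 without control replicate 3 and 0.12 with embryo sex as a covariate. *Smad1* was 22.6 to 24.4 FPKM in *Ntn1SPKO* and 22.6 to 24.1 FPKM in control against 20.6 to 22.4 FPKM in wild-type libraries (log2 FC 0.15, adjusted p=0.831, and 0.14, adjusted p=0.665). *Runx2*, a transcription factor of bone formation that partners with Smads, was higher in control (1.47 to 2.33 FPKM) than in *Ntn1SPKO* (0.600 to 1.31 FPKM) and wild-type libraries (0.665 to 1.24 FPKM), with log2 FCs of −1.19 for *Ntn1SPKO* against control (adjusted p=0.447) and 1.09 for control against wild-type (adjusted p=0.665). These were −1.06 and 0.97 without control replicate 3.

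Of the 11 target genes, *Msx2*, a homeobox gene, had the largest difference. It was 0.687, 0.510, 0.456 and 0.372 FPKM in wild-type, 0.466, 0.518 and 0.115 FPKM in control, and 0.919, 1.28 and 1.44 FPKM in *Ntn1SPKO* libraries. Each *Ntn1SPKO* value was above the 7 others, at a low level in all. *Msx2* averaged 0.366 FPKM in control libraries, under the filter of 0.5 FPKM, and was not tested between control and wild-type kidneys. It passed the filter against control only through its *Ntn1SPKO* values, so its p-values there follow a choice by level. The log2 FC of *Msx2* was 1.62 against control (SE 0.49, unadjusted p=0.0151, adjusted p=0.447) and 1.12 against wild-type (SE 0.27, unadjusted p=0.00397, adjusted p=0.397). Against control it was 1.13 without control replicate 3 and 1.07 with embryo sex as a covariate. *Id2* was 154 to 164 FPKM in *Ntn1SPKO* and 91.4 to 150.2 FPKM in control libraries (log2 FC 0.40, adjusted p=0.447, 0.20 without control replicate 3 and 0.0773 with embryo sex as a covariate), and the wild-type range, 115 to 185 FPKM, enclosed the *Ntn1SPKO* values. Control replicate 3 had the lowest *Msx2*, *Id2*, *Smad9* and *Sostdc1* and the highest *Bmp3*, *Gdf5*, *Gdf6*, *Runx2* and *Vwc2* of the 10 libraries, beside the marker sums given for it above, and the part of those markers in these values was not tested.

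**Figure D4:**
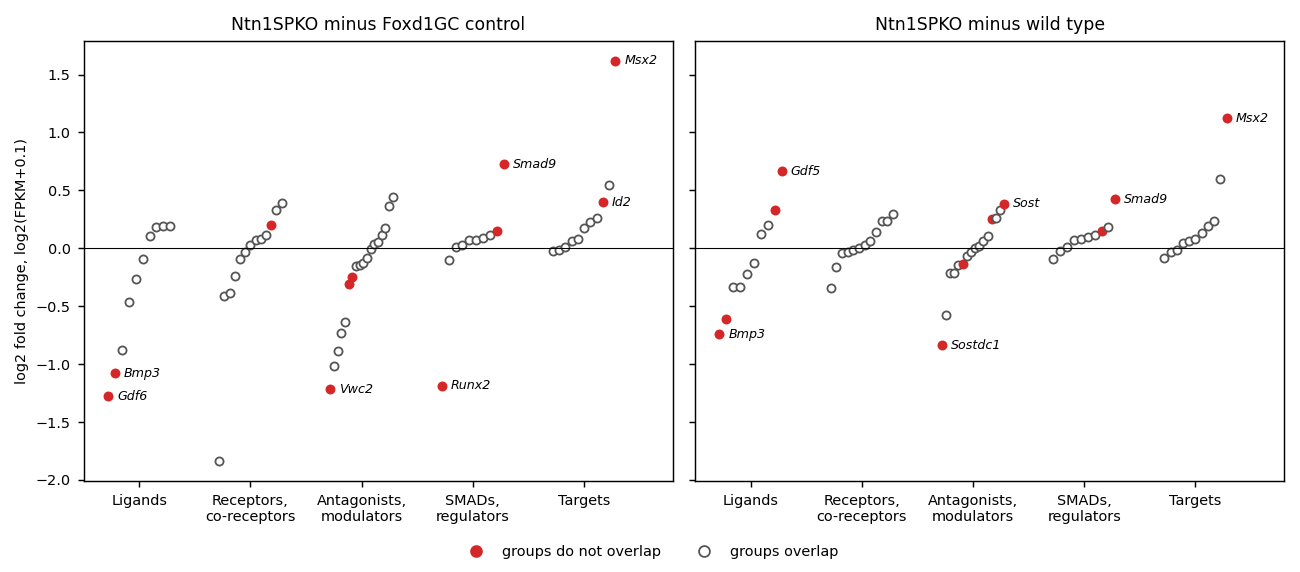
Log2 fold change on the log2(FPKM+0.1) scale (vertical axis) of each tested gene of the 5 BMP pathway lists (horizontal axis), for Ntn1SPKO against Foxd1GC control (left, 62 genes) and against wild type (right, 59 genes), with filled points where the groups do not overlap. Msx2 is the highest point in both panels, and Bmp3 is among the lowest ligands in both.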

How the data were processed

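The deposited values are FPKM, 1 column per library. Per the labels, reads were converted with bcl2fastq 2.17.1.14. According to the paper, the authors quantified them with Salmon (version not given in the sources used here) on coding sequences of Ensembl GRCm38, summarised them to genes with tximport and tested counts with DESeq2. Median-of-ratios factors were equal in the 10 libraries, so the FPKM already carry that scaling, which removes differences in total RNA. No gene counts were analysed here, so no count model was fitted. Reads outside coding sequence do not enter the values.

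Groups came from sample titles. limma 3.58.1 in R 4.3.3 was run per pair of groups on log2(FPKM+0.1), with eBayes and an intensity trend, keeping genes that averaged 0.5 FPKM or more. The pseudocount of 0.1 understates changes of low genes. Exact permutation tests were two-sided. Correlations used 100000 permutations. Coordinates are from GENCODE on GRCm38. Steps were tested on simulated data.

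The members and lists were chosen with earlier results of these data known. Named genes were the 10 members, for each pathway list and comparison up to 2 tested genes with the largest change among those without overlap, and the 3 genes closest to each member. Antagonists outside this rule with an unadjusted p under 0.05, and *Smad4*, are also given. Alternatives were other pseudocounts, filters, scalings, thresholds and eBayes settings, all libraries in one fit, a replicate block, embryo sex as a covariate, and leaving out each library. Counts and named pathway genes without control or wild-type replicate 3, and named pathway genes with embryo sex as a covariate, were added once values were known.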

Additional observations from a re-analysis of the deposited data

Results flagged for a closer look

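The 4 wild-type libraries were checked for a single library far from the rest, as the gap to its nearest neighbour over the range of the group on the log2(FPKM+0.1) scale (Dixon's ratio, against its critical value for 4 samples). Chance passes this value in about 1 of 20 groups, and 10 genes were checked. *Bmp7* passed with a ratio of 0.9004: wild-type replicate 4 was at 27.8 FPKM and the others at 21.3 to 21.9 FPKM. *Id3* passed with a ratio of 0.9054: wild-type replicate 3 was at 172.0 FPKM and the others at 122.4 to 126.4 FPKM. Wild-type replicate 3 also had the highest *Id1*, at 67.9 FPKM, with a ratio of 0.478 that did not pass. Without the library that passed, the log2 FC of *Ntn1SPKO* against wild-type kidneys was 0.29 for *Bmp7* and 0.17 for *Id3*, and neither gene was called.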

How the results depend on the processing

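No BMP gene was called in any of the 3 comparisons under any alternative, and 472 of 507 log2 fold changes of single genes kept their direction. Other filters, other eBayes settings and all libraries in one fit cannot change a log2 fold change. Rescaling by equal median-of-ratios factors hardly can. The share that kept direction is therefore not a measure of robustness. The number of genes called over the whole table moved more. For *Ntn1SPKO* against control it was 8, 21 with no filter, 0 with all libraries in one fit, 4 with embryo sex as a covariate, 334 at an unadjusted p under 0.1, and 3 to 78 without 1 library. For *Ntn1SPKO* against wild-type it was 7, 2 with a pseudocount of 1, 18 with no filter, 12 with no intensity trend, 0 with all libraries in one fit, 187 with embryo sex as a covariate, 201 at an unadjusted p under 0.1, and 1 to 20 without 1 library. For control against wild-type it was 1, 2 with a pseudocount of 1 or 0.01, 9 with no filter, 4 with no intensity trend, 0 with all libraries in one fit, 207 at an unadjusted p under 0.1, and 3 to 20 without 1 library. The causes were not tested. Deviations from group means had r of −0.04 to 0.08 between same-numbered libraries and −0.11 to 0.06 between others. With so few libraries these values cannot settle whether same-numbered libraries share more than a number. With a replicate block 4, 6 and 1 genes were called in the 3 comparisons, and no BMP gene.

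Directions turned with embryo sex as a covariate for *Ntn1SPKO* against control in *Bmp2* (−0.69), *Bmp5* (0.0203), *Bmper* (0.20) and *Id1* (−0.13), and against wild-type in *Id3* (−0.29). The values against control rest on control replicate 2, and that against wild-type on wild-type replicate 3. After quantile normalization they turned for *Id1* in each comparison (−0.0218, 0.0022 and 0.0241). After rescaling to the same total they turned for *Id3* against control (0.0234) and *Id1* against wild-type (0.0431). Leaving out 1 library gave log2 fold changes for *Ntn1SPKO* against control of −0.35 to 0.64 (*Bmp2*), −0.37 to 0.25 (*Bmp4*), −0.23 to 0.0049 (*Bmper*), −0.0381 to 0.0812 (*Id1*) and −0.0919 to 0.0984 (*Id3*). Against wild-type they were −0.61 to 0.0118 (*Bmp4*), −0.0374 to 0.0559 (*Bmpr1a*), −0.0782 to 0.0883 (*Id1*) and −0.0194 to 0.17 (*Id3*), and for control against wild-type −0.0279 to 0.0979 (*Bmp7*) and −0.0941 to 0.077 (*Id1*). These are small values near 0 except for *Bmp2* and *Bmp4*.

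Pathway genes with an unadjusted p under 0.05 went from 7 to 3 for *Ntn1SPKO* against control without control replicate 3, and for control against wild-type from 8 to 3 without control replicate 3 and 7 without wild-type replicate 3. Those without overlap in the last comparison went from 7 to 11 and 12, while the shares of all genes without wild-type replicate 3 were 10.5% by p and 19.7% by overlap, against 11.5% and 19.7% of the pathway genes, and the counts of the 10 BMP genes went from 1 to 0 and 2 by p and from 0 to 0 and 2 by overlap. Pairs of BMP genes with an adjusted p under 0.1 went from 2 to 0 without the 2 libraries farthest from the median, where fewer libraries were used, and to 6 with group means removed, where p-values are likely too small. Of the named pathway genes, *Sostdc1* against wild-type was called only with embryo sex as a covariate (−1.33, adjusted p=0.0104), among the 3 settings run for these genes. That fit sets *Ntn1SPKO* against wild-type replicate 3 alone. Depth limits *Grem1* and *Nog* most.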
